A study of Mus musculus with 10 samples.

Results

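Conjugation enzymes attach glutathione, glucuronic acid or sulfate to drugs, food compounds, hormones and products of lipid oxidation. The genes described here are all those of the deposited expression table whose mouse symbol starts with Gsta, Gstm, Gstp, Gstt, Gsto or Gstk (glutathione transferases), Ugt1, Ugt2 or Ugt3 (UDP-glycosyltransferases, most of them glucuronosyltransferases) or Sult with a family number (sulfotransferases). This rule gave 61 of 23079 genes, of which 21 were Gst, 19 Ugt and 21 Sult genes. Male C57BL/6J mice had vertical sleeve gastrectomy (VSG) or sham surgery, and RNA of 5 tissues (stomach, duodenum, jejunum, ileum, colon) was sequenced as 1 library for each tissue and operation, 10 in all. VSG removes about 80% of the stomach and leaves a tube of about 20%, and the sham operation opened the abdomen and pressed the stomach with a clamp. All mice, sham included, were 17 weeks old, had been on a high-fat diet for 13 weeks, were fasted overnight before the operation and had a liquid diet for the first 3 days after it. Neither the animals per library nor the time of sampling is stated. Differences between VSG and sham inside 1 tissue are therefore without replicates. The spread behind the p-values given here is how unevenly VSG and sham differ from tissue to tissue. Nothing says that it holds the spread between animals.

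Glutathione transferases are mostly soluble dimers that join glutathione to electrophiles. Glucuronosyltransferases sit in the endoplasmic reticulum and use UDP-glucuronate, and the sulfotransferases take sulfate from the donor PAPS (3'-phosphoadenosine 5'-phosphosulfate). In gut epithelium these enzymes act on what is absorbed before it reaches the portal blood, the products leave through ABC transporters, and the liver carries many of the same families at high levels.

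The depth that the deposited RPKM values imply (reads scaled for gene length and for depth) was 37449500 to 78382700 reads per library. Enterocyte markers summed to between 22375 and 46406 RPKM in VSG duodenum and in both jejunum and both ileum libraries, and Hoxb13, a marker of distal colon, had 119 and 143 RPKM in VSG and sham colon. The library labelled sham duodenum held neural RNA, since its list of 10 neuron and glia markers summed to 2031 RPKM, against 12.8 to 53.0 RPKM in the other libraries, and its enterocyte markers had a median of 0.819 RPKM. The VSG stomach library held liver RNA, with 12 hepatocyte markers summing to 18495 RPKM, against 71.4 RPKM in sham stomach, and its 4 parietal and chief cell markers summed to 1600.4 RPKM, against 98039 RPKM in sham stomach. None of the neuron and glia, enterocyte, hepatocyte or parietal and chief markers was at 0 in any library, while Hoxb13 was at 0 in both stomach libraries, sham jejunum and sham ileum. Both duodenum libraries were left out of the tests over 8 libraries, a fit that holds all 10 libraries is named as such, and results on stomach are given beside the liver markers. In whole tissue, fewer cells of a type and less RNA per cell cannot be told apart.

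Of the 61 genes, 45 reached 1 RPKM in at least 1 library, 37 reached 10 RPKM and 19 reached 100 RPKM. The other 16 stayed under 1 RPKM in every library, and Sult2a6, Sult3a1 and Sult3a2 were listed at 0 throughout. Summed over their members, which RPKM allows because it is per length, the Gst genes were the most abundant class. They summed to 6338 RPKM in VSG and 6531 RPKM in sham stomach, 5674 RPKM in VSG duodenum, 2669 and 4077 RPKM in VSG and sham jejunum, 1165 and 1258 RPKM in VSG and sham ileum, and 1503 and 1379 RPKM in VSG and sham colon. Ugt genes lay between 73.9 RPKM (sham stomach) and 594 RPKM (VSG duodenum) outside the library labelled sham duodenum. Sult genes lay between 216 RPKM (VSG stomach) and 1316 RPKM (VSG duodenum) in the same libraries. Setting aside the library labelled sham duodenum, Gsto1, Gstp1 and Gstp2 had at least 100 RPKM in every library, and no other member did. In the library labelled sham duodenum Gstp1 had 183 RPKM, Gstp2 101 RPKM and Gsto1 15.1 RPKM.

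**Figure D1:**
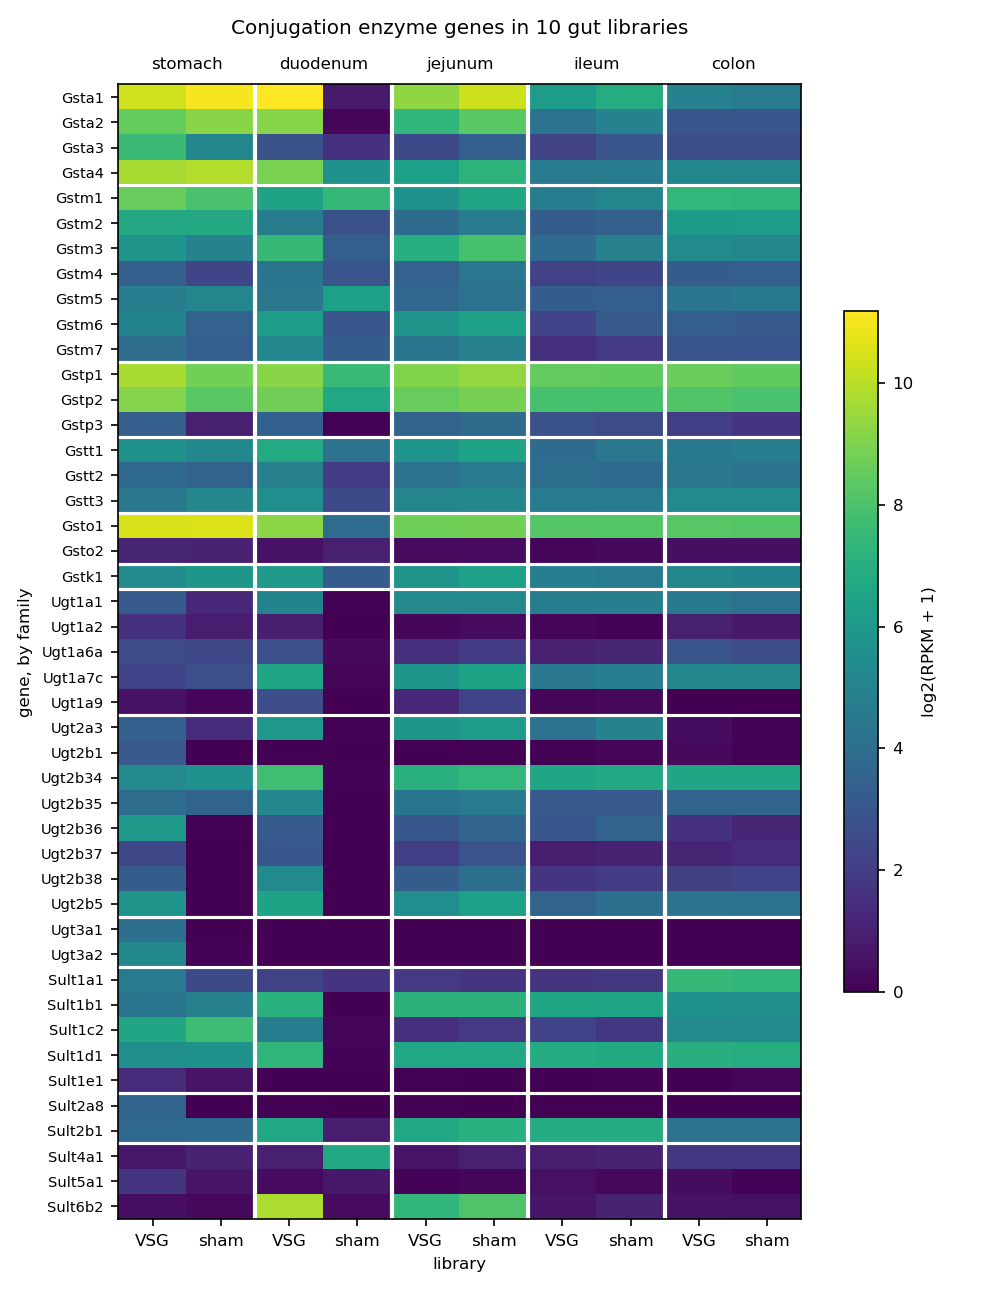
Heat map of log2(RPKM + 1) for the 45 conjugation enzyme genes with at least 1 RPKM in some library (rows, by family) in the 10 libraries (columns, VSG left of sham in each tissue). Gstp1 and Gstp2 are high in every library, and Gsto1 in every library except the one labelled sham duodenum. Ugt3a1, Ugt3a2, Ugt2b1 and Sult2a8 are seen in VSG stomach, and Sult6b2 is high in VSG duodenum and in both jejunum libraries.

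Most members lie in clusters of close copies, which limits how well their reads can be told apart. The 7 Gstm genes lie together on chromosome 3 between bases 107895854 and 108045179 (RefSeq, GRCm38.p6). Gsta1, Gsta2 and Gsta4 share chromosome 9 between bases 78191966 and 78347192, while Gsta3 is on chromosome 1. The 10 Ugt2 genes span bases 86889770 to 87490871 of chromosome 5, before Sult1b1, Sult1d1 and Sult1e1 at 87513327 to 87591611. The 7 Ugt1 genes lie on chromosome 1 and all end at base 88220002, since they share the exons at that end. In GENCODE transcripts of the same build, those of Gsta1 and Gsta2 matched at 97.2% of their bases, those of Ugt2b38 and Ugt2b5 at 95.5% and those of Gstp1 and Gstp2 at 94.2%. The Ugt1a6a transcript lay whole within that of Ugt1a7c, with 100% of its 2297 bases the same, and Ugt1a9 and Ugt1a10 matched at 96.4%. Ugt1a transcripts shared between 58.7% and 94.5% of their bases with other Ugt1a genes. How reads of shared exons were counted is not given in the sources used here. Levels of single Ugt1a genes, and of Gsta1 against Gsta2, are uncertain for this reason.

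The promoters of 6 members whose levels the results turn on are shown, as the 250 bases before 1 RefSeq start per gene (GRCm38.p6), written 5′ to 3′ on the gene's strand. For Sult1a1 this start is internal, and all 250 bases lie inside the gene span, which runs on chromosome 7 from 126672865 to 126690443. For Gsta2, whose span ends at 78347192, the 47 bases nearest the start lie inside it, and for the other 4 genes none do. Gsta1 and Gsta2 are shown as close copies whose listed levels moved together. Ugt1a1 and Ugt2a3 are shown as genes of intestinal epithelium, and Sult1a1 and Sult6b2 as sulfotransferases of different gut segments. Capitals mark letters of a site that was searched for.
Gsta1, chr9:78230419-78230668, plus strand: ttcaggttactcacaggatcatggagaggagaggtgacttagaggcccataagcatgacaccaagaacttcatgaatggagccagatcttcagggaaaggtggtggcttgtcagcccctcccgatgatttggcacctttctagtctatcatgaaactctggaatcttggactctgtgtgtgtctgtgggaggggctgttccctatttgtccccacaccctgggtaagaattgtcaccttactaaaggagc
Gsta2, chr9:78347146-78347395, minus strand: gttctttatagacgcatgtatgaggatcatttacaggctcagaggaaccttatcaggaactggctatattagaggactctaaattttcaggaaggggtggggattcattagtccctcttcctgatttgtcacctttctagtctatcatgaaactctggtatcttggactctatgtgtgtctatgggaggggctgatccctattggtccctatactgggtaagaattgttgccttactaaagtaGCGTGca
Ugt1a1, chr1:88211709-88211958, plus strand: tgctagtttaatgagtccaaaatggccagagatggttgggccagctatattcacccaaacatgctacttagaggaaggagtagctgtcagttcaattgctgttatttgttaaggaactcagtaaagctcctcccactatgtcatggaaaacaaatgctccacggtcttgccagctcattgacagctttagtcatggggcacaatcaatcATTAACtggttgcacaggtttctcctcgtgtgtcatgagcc
Ugt2a3, chr5:87337196-87337445, minus strand: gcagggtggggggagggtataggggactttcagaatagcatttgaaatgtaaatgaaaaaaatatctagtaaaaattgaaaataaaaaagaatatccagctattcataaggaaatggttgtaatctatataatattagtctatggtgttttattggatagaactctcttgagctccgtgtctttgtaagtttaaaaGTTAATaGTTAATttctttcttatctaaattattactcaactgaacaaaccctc
Sult1a1, chr7:126676419-126676668, minus strand: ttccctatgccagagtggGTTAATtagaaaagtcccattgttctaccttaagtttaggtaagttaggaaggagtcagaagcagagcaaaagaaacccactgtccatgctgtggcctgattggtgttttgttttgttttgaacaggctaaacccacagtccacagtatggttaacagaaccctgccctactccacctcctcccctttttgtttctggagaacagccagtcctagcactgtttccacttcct
Sult6b2, chr6:142804467-142804716, minus strand: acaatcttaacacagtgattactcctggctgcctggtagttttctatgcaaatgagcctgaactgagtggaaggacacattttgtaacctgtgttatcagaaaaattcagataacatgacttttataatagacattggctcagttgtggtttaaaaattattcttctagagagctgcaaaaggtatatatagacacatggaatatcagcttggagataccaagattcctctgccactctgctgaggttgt

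Gsta1 and Gsta2 matched at 73.3% of these bases, with a longest shared run of 29 bases, and only Gsta2 holds GCGTG, the core of the site of the aryl hydrocarbon receptor, ending 3 bases before the start used here and inside the gene span. Ugt2a3 holds GTTAAT, a core of the site of the hepatocyte nuclear factor HNF1, at 2 places within 54 bases of its start. Ugt1a1 holds it on the other strand between 41 and 36 bases before its start, and Sult1a1 holds it between 232 and 227 bases before its start. Sult6b2 and Gsta1 held none of the 4 motifs searched, which says only that the letters are not in this window. Over the 54 members with a promoter in the table, both strands read, GTTAAT was present in 14 (25.9%), against 6.52% of all 27025 promoters. The 14 are not independent, since they include Sult2a3, Sult2a4, Sult2a5 and Sult2a6, genes whose transcripts match at 88.0% to 94%. These genes, with Sult3a2 and Ugt1a10 also among the 14, stayed under 1 RPKM in every library. GCGTG was present in 7 (13.0%), against 28.2% of all promoters. The core TGACNNNGC of the antioxidant response element, bound by Nfe2l2 (Nrf2), was present in 2 (3.7%), against 10.1%, and the CDX letters TTTATG in 3 (5.56%), against 11.1%. A match is a description of letters and not of binding.

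Along the gut, Gsta genes were highest in stomach and upper small intestine. Gsta1, an alpha class transferase, had 1316 and 2104 RPKM in VSG and sham stomach, 2308 RPKM in VSG duodenum, 637 and 1287 RPKM in VSG and sham jejunum, 68.5 and 121 RPKM in VSG and sham ileum, and 30.1 and 23.8 RPKM in VSG and sham colon. It was the leading Gsta gene in stomach, VSG duodenum, jejunum and ileum, and its levels in both libraries of each tissue did not overlap with those of the next tissue down from jejunum to colon. Gsta2 followed it at a nearly fixed ratio, between 0.231 and 0.290 of the RPKM of Gsta1 outside the library labelled sham duodenum. Their transcripts match at 97.2% of bases, and how reads that fit both genes were assigned is not given. The 2 levels may therefore not be separate measurements. Gsta4, which acts on 4-hydroxynonenal, an aldehyde from oxidised lipid, had 833 and 948 RPKM in VSG and sham stomach, 486 RPKM in VSG duodenum, and 24.4 to 148 RPKM in jejunum, ileum and colon. Gsto1, which reduces dehydroascorbate, had 1463 and 1517 RPKM in VSG and sham stomach, 597 RPKM in VSG duodenum and 292 to 438 RPKM in the lower tissues.

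Of the mu class genes, Gstm1 led in stomach, ileum and colon and Gstm3 in VSG duodenum and jejunum. Gstm1 had 379.9 and 247 RPKM in VSG and sham stomach, 51.7 and 98.3 RPKM in VSG and sham jejunum, 25.3 and 34.3 RPKM in VSG and sham ileum, and 169 and 159 RPKM in VSG and sham colon. Gstm3 had 56.5 and 29.96 RPKM in VSG and sham stomach, 181 RPKM in VSG duodenum, 126 and 239 RPKM in VSG and sham jejunum, 13.9 and 27.9 RPKM in VSG and sham ileum, and 39.6 and 34.3 RPKM in VSG and sham colon. Outside the library labelled sham duodenum, both were at their lowest in ileum. The pi class genes Gstp1 and Gstp2 lay between 344 and 859 RPKM and between 239 and 549 RPKM outside the library labelled sham duodenum. Gstt1, a theta class gene, and Gstk1, of mitochondria and peroxisomes, peaked at 114 RPKM in VSG duodenum and 78.2 RPKM in sham jejunum.

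Among the less abundant transferases, Gstm2 followed Gstm1, with 106 and 107 RPKM in VSG and sham stomach, 67.4 and 69.4 RPKM in VSG and sham colon, and 8.96 to 25.9 RPKM in VSG duodenum, jejunum and ileum. Gstm6 followed Gstm3, with 72.9 RPKM in VSG duodenum, 53.3 and 82.2 RPKM in VSG and sham jejunum, and 3.78 and 8.17 RPKM in VSG and sham ileum. Gstt3 lay between 21.0 and 43.5 RPKM in all 9 libraries other than the one labelled sham duodenum, and Gstt2 between 10.6 and 27.7 RPKM.

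Glucuronosyltransferases were lowest in stomach among the sham tissues other than duodenum, with 505 RPKM in sham jejunum, 232 RPKM in sham ileum, 188 RPKM in sham colon and 73.9 RPKM in sham stomach for all Ugt genes. Ugt2b34 led the Ugt2 family in every library except VSG stomach, with 216 RPKM in VSG duodenum, 137 and 168 RPKM in VSG and sham jejunum, 95.3 and 107 RPKM in VSG and sham ileum, 94.6 and 95.8 RPKM in VSG and sham colon, and 36.9 and 48.7 RPKM in VSG and sham stomach. Ugt1a1, the enzyme that conjugates bilirubin, had 8.12 and 1.36 RPKM in VSG and sham stomach and between 17.3 and 37.8 RPKM in VSG duodenum, jejunum, ileum and colon. Ugt2a3 had 60.7 RPKM in VSG duodenum, 59.8 and 68.2 RPKM in VSG and sham jejunum, 17.8 and 31.2 RPKM in VSG and sham ileum, and 0.303 and 0.044 RPKM in VSG and sham colon. It was thus near 0 in colon, where Ugt1a1 and Ugt2b34 were present. Ugt1a7c was the leading Ugt1 gene in VSG duodenum (94.98 RPKM), in jejunum (58.3 RPKM in VSG and 87.2 RPKM in sham) and in colon (35.2 RPKM in VSG and 33.9 RPKM in sham), and Ugt1a1 in ileum. Ugt2b5 had 89.6 RPKM in VSG duodenum, 43.1 and 78.8 RPKM in VSG and sham jejunum, 11.01 and 15.9 RPKM in VSG and sham ileum, and 18.9 and 17.3 RPKM in VSG and sham colon. Ugt2b35 had its highest level, 35.1 RPKM, in VSG duodenum and lay between 7.78 and 24.2 RPKM in stomach, jejunum, ileum and colon.

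Several sulfotransferases differed strongly in level between tissues. Sult6b2 had 883 RPKM in VSG duodenum, 160.2 and 269 RPKM in VSG and sham jejunum, and at most 1.19 RPKM in any other library. Sult1a1, which sulfates phenols, had 178 and 165 RPKM in VSG and sham colon, 24.2 and 4.44 RPKM in VSG and sham stomach, and 2.22 to 3.45 RPKM in VSG duodenum, jejunum and ileum. Sult1c2 had 96.5 and 206 RPKM in VSG and sham stomach and 38.9 and 39.4 RPKM in VSG and sham colon. Between them it had 25.2 RPKM in VSG duodenum and 1.95 to 3.75 RPKM in jejunum and ileum. Sult2b1, which sulfates cholesterol, was even through the small intestine, at 101 to 136 RPKM in VSG duodenum, jejunum and ileum, with 17.5 and 17.2 RPKM in VSG and sham colon. Sult1b1, which acts on thyroid hormone and small phenols, and Sult1d1, which acts on catecholamines in mice, were at 44.4 to 161 RPKM in every tissue below the stomach outside the library labelled sham duodenum. Outside that library, the highest value of the 45 genes lay in stomach for 19, in duodenum for 14, in jejunum for 9 and in colon for 3, and for none in ileum. Of the 19 in stomach, 13 were highest in VSG stomach, the library with liver RNA, and 6 in sham stomach. The share of all genes with their highest value in each tissue was not counted.

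**Figure D2:**
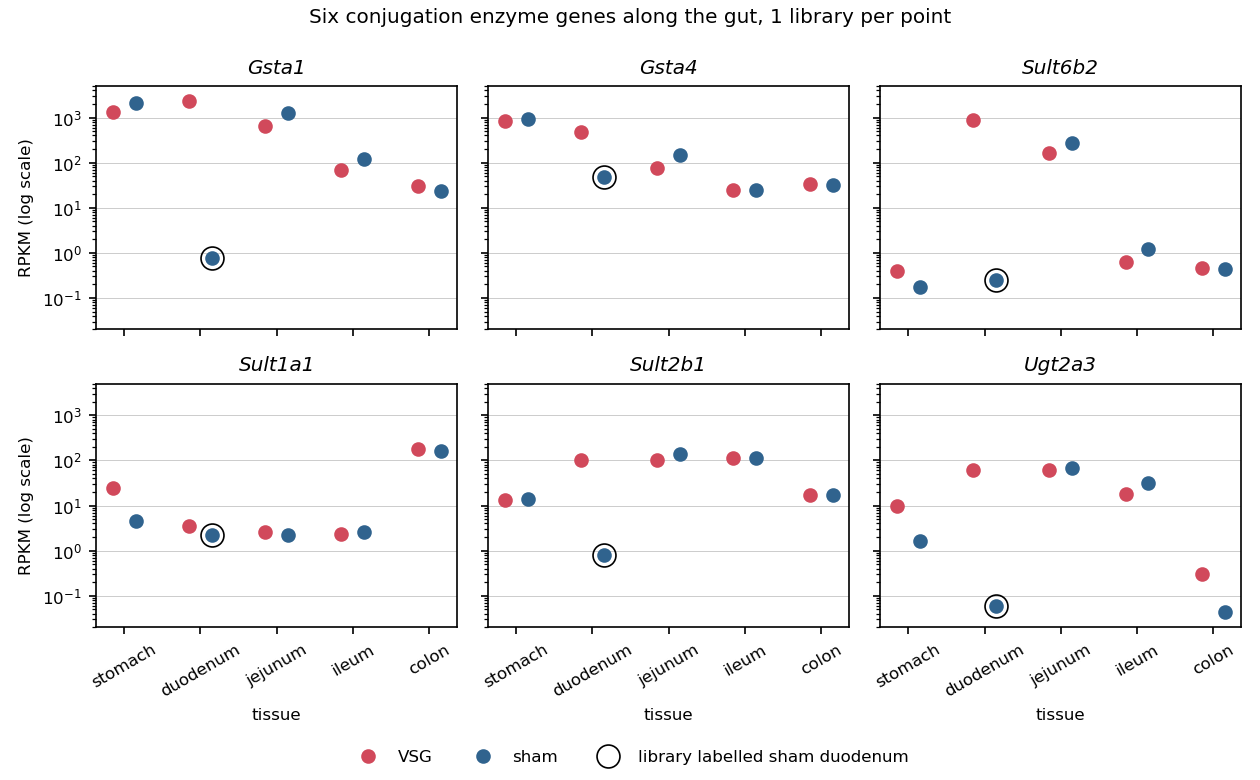
RPKM on a log scale of 6 genes in each tissue from stomach to colon, VSG left of sham, 1 library per point, with the library labelled sham duodenum ringed. Gsta1 declines towards the colon, Sult6b2 is high in VSG duodenum and jejunum, at 160.2 to 883 RPKM, Sult1a1 is high in colon, at 165 and 178 RPKM, and Ugt2a3 is under 1 RPKM in colon.

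These tissue differences were tested with limma on log2(RPKM + 1) over the 8 libraries of stomach, jejunum, ileum and colon, with surgery as an additive term, Benjamini-Hochberg adjustment over 13357 genes, and a call at an adjusted p of 0.05 and at least 2-fold. Of the 40 members fitted, 6 were higher and 5 lower in small intestine (mean of jejunum and ileum) than in colon, where 4.99% and 11.3% of all genes were. Ugt2a3 was higher by 5.10 on the log2 scale (SE 0.58, adjusted p = 0.00332), Sult6b2 by 3.77 (SE 0.23, adjusted p = 0.000682), Gsta1 by 3.38 (SE 0.30, adjusted p = 0.00175) and Gsta2 by 3.23, with Sult2b1 and Sult1b1. Sult6b2 was higher in jejunum, while its 0.613 and 1.19 RPKM in VSG and sham ileum stood near the 0.466 and 0.437 RPKM of VSG and sham colon. Sult1a1 had the largest difference in the other direction, -5.65 (SE 0.52, adjusted p = 0.00196), with Sult1c2 at -3.45, Gstm2 at -2.25, Gstm1 at -1.81 and Ugt1a6a at -1.36. With all 10 libraries, the one labelled sham duodenum included, 1 member and 3.98% of all genes were called.

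Between jejunum and ileum, 8 of the 40 members were higher in jejunum and none was lower, where 0.958% of all genes were higher and 1.42% lower, 2.38% in all. These were Sult6b2 (log2 6.79, SE 0.26, limma adjusted p = 0.00231), Gsta1 (3.30, SE 0.35, adjusted p = 0.0232), Gsta2, Gsta4, Gstm7, Gstt1, Ugt1a7c and Ugt2b35. Gstm3 and Gstm6 missed the threshold with log2 differences of 3.07 (SE 0.51, adjusted p = 0.0504) and 3.34 (SE 0.61, adjusted p = 0.0583). In all, 33 of the 40 members lay above 0, with a median of 0.77, against -0.12 over all genes. The number of calls moved with single libraries. Calls among the members fell to few or none without a jejunum, ileum or colon library and rose without a stomach library. Calls over all genes moved the same way. With no filter on low values 5 members and 1.07% of all genes were called. With all 10 libraries no member and 0.134% of all genes were called.

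Stomach differed from the mean of jejunum, ileum and colon in 15 of the 40 members, 8 higher and 7 lower, where 9.01% of all genes were higher and 9.76% lower. The higher members were all 4 Gsta genes, Gstm1, Gstm2, Gsto1 and Sult1c2. Gsta4 had a log2 difference of 4.28 (SE 0.22, limma adjusted p = 0.000242) and Sult1c2 one of 4.12 (SE 0.30, adjusted p = 0.000659). Ugt1a7c, at -2.84 (SE 0.14, adjusted p = 0.000233), and Sult6b2, at -2.70, led the lower members, followed by Ugt1a1, Sult2b1, Sult1b1, Ugt2b34 and Sult1d1. VSG stomach, the library with liver RNA, is one of the pair behind this contrast. Without it 25 members and 21.6% of all genes were called, and without sham stomach 25 members and 25.2% of all genes. With all 10 libraries 3 members and 6.14% of all genes were called.

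In stomach, the VSG library held many Ugt transcripts that the sham library nearly lacked, and less Sult1c2, Gsta1 and Gsta2. Of 42 members with a mean of at least 1 RPKM in the pair, 16 had a level in VSG at least 2-fold higher, and 1 a lower one, on the log2(RPKM + 1) scale, where 12.9% of all genes were higher and 3.94% lower. Their median log2 difference was 0.69, while 49.9% of all genes kept lay above 0. At 1.5-fold 23 members were higher, where 19.1% of all genes were, and 4 were lower, where 11.5% were. Ugt2b36 had 64.9 RPKM (5872 reads) in VSG stomach and 0.0457 RPKM (7 reads) in sham stomach, a ratio of 1421 (95% interval 689 to 3535, exact, for counting error only). Ugt2b5 had 54.5 and 0.027 RPKM in VSG and sham stomach, with 4 reads in sham, a ratio of 2021 (interval 789 to 7421). Ugt3a2, of a family that uses other sugars than glucuronic acid in humans, had 35.9 and 0.0765 RPKM in VSG and sham stomach, a ratio of 470 (interval 307 to 759). Ugt3a1 had 15.8 and 0.0114 RPKM in VSG and sham stomach, a ratio of 1390.4 (interval 249 to 54984, taking the sham value as 1 read). That read count assumes a length of 1124 bases, while the GENCODE transcript has 2244, so the reads may be too few and the interval too wide.

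Further members that were near or at 0 in sham stomach belonged to the same families and to the hydroxysteroid sulfotransferases. Ugt2b1 had 7.58 and 0.0301 RPKM in VSG and sham stomach. Sult2a8 had 1178 reads in VSG stomach (11.3 RPKM) and 0 in sham stomach, at least 665-fold higher against a floor of 3 reads, and Ugt2b38 and Ugt2b37 were at least 435-fold and 209-fold higher by the same floor. Ugt3a1, Ugt3a2, Ugt2b1 and Sult2a8 had at most 0.21 RPKM in every other library, and 6 more Sult2a genes were above 0 in VSG stomach alone, at up to 0.554 RPKM. The hepatocyte markers moved with these genes: all 12 were at least 2-fold higher in VSG stomach, with a median log2 difference of 8.93. Leukocyte markers summed to 1216 and 16.9 RPKM, pancreatic acinar markers to 1437 and 121 RPKM and enterocyte markers to 823 and 193 RPKM in VSG and sham stomach. The part of these cells in the result was not tested.

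Members that were above 0 in sham stomach, some of them under 1 RPKM there, also differed. Gsta3, which in mice conjugates the aflatoxin epoxide, had 192 and 34.1 RPKM in VSG and sham stomach, a ratio of 5.64 (interval 5.44 to 5.85). Sult1a1 had 24.2 and 4.44 RPKM, Ugt1a1 8.12 and 1.36 RPKM and Ugt2a3 9.91 and 1.66 RPKM in VSG and sham stomach, ratios of 5.45, 5.98 and 5.96. Gstp3 had 9.38 and 0.99 RPKM, Gstm6 31.6 and 10.4 RPKM, Gstm4 9.79 and 4.05 RPKM and Sult5a1 2.27 and 0.517 RPKM in VSG and sham stomach. In the other direction Sult1c2 had 96.5 and 206 RPKM in VSG and sham stomach, a ratio of 0.469 (interval 0.457 to 0.482), and was the 1 member at least 2-fold lower. Gsta1 had a ratio of 0.625 (interval 0.619 to 0.631) and Gsta2 one of 0.621, while Gsto1 was close to even at 0.964. In the same pair all 4 parietal and chief cell markers were at least 2-fold lower, summing to 1600.4 and 98039 RPKM in VSG and sham. Hepatocyte markers summed to 18495 and 71.4 RPKM in VSG and sham stomach. The part of these cells in the ratios was not tested. Rescaling both libraries to 1 total put the median of all genes at 0.18 and gave 20 higher and 0 lower, with Sult1c2 at -0.89. Scaling without the 10 highest genes, which put that median at -0.32, gave 14 higher and 4 lower.

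**Figure D3:**
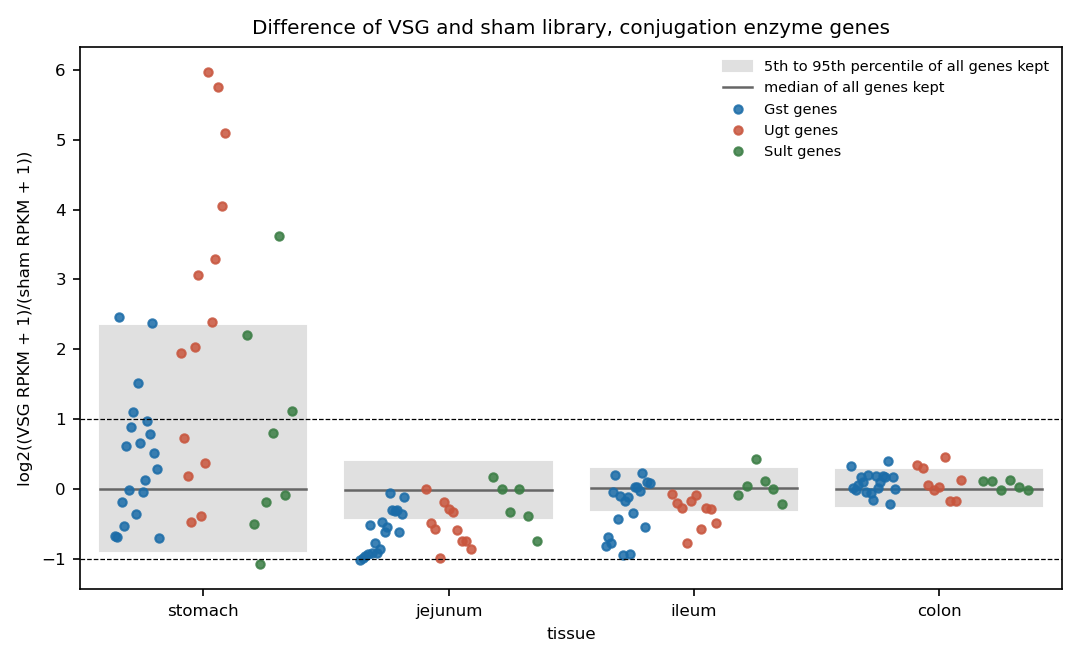
Difference of VSG and sham, as log2((VSG RPKM + 1)/(sham RPKM + 1)), for each member kept in stomach, jejunum, ileum and colon, by class, with the 5th to 95th percentile (grey) and median (line) of all genes kept and dashed lines at 2-fold. Ugt genes reach 5.98 in stomach, 34 of 36 members lie below 0 in jejunum and 26 of 35 in ileum, and in colon all lie between -0.22 and 0.46.

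In jejunum, conjugation enzymes were lower in the VSG library nearly throughout, and the Gsta and Gstm genes most. Of 36 members kept, 34 (94.4%) lay below 0, against 53.0% of all genes kept, and their median log2 difference was -0.53, against -0.02 over all genes. At 2-fold on the log2(RPKM + 1) scale 1 member was lower and none higher, where 0.3% of all genes were lower and 0.762% higher. At 1.5-fold, a threshold added after seeing the data, 16 members were lower and 0 higher, where 1.95% of all genes were lower and 2.01% higher. By family these 16 were 4 of 4 Gsta, 5 of 7 Gstm, 1 of 3 Gstt, 1 of 4 Ugt1, 4 of 7 Ugt2 genes and Sult6b2.

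The member past 2-fold on that scale was Gsta1, with 637 RPKM (20582 reads) in VSG jejunum and 1287 RPKM (44428 reads) in sham jejunum. Its ratio was 0.495 (95% interval 0.487 to 0.503). Ratios are of RPKM alone, and by them Gsta3 and Ugt1a9, at lower levels, pass 2-fold too. Gsta2 had 160.3 and 319 RPKM, Gsta3 4.52 and 9.78 RPKM and Gsta4 77.3 and 148 RPKM in VSG and sham jejunum, ratios of 0.503, 0.462 and 0.521. All 4 alpha class genes thus had ratios between 0.462 and 0.521, over a wide range of levels. Gstm3 had 126 and 239 RPKM in VSG and sham jejunum, a ratio of 0.527 (interval 0.510 to 0.544), and Gstm1 51.7 and 98.3 RPKM, a ratio of 0.525. The highest ratio of the 7 Gstm genes was that of Gstm5, at 0.704 (12.1 and 17.2 RPKM in VSG and sham jejunum). Gstt1 and Gstk1 had ratios of 0.648 and 0.692, and Gstp1, Gstp2 and Gsto1 had ratios of 0.811, 0.804 and 0.958.

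Among the Ugt genes, Ugt1a9 had 1.42 and 3.79 RPKM in VSG and sham jejunum, a ratio of 0.374 (interval 0.312 to 0.445), and Ugt2b5 43.1 and 78.8 RPKM, a ratio of 0.547. Ugt2b37 and Ugt2b38 had ratios of 0.529 and 0.570, and Ugt2b34 one of 0.817. Ugt1a1 was even, at 37.7 RPKM in VSG and 37.8 RPKM in sham jejunum (ratio 0.998, interval 0.958 to 1.04). Sult6b2 had 160.2 and 269 RPKM in VSG and sham jejunum, a ratio of 0.596 (interval 0.581 to 0.612), and Sult2b1 one of 0.763. Sult1b1 and Sult1d1 had equal levels within counting error, with ratios of 1.00 (interval 0.978 to 1.02) and 0.999 (0.971 to 1.03). The 4 Sult1 genes kept had log2 differences between -0.33 (Sult1c2) and 0.17 (Sult1a1).

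Enterocyte markers were lower in the same library, with 9 of 10 below 0 and a median of -0.31, and a sum of 33474 RPKM in VSG and 46406 RPKM in sham jejunum. Pancreatic acinar markers summed to 217 RPKM in VSG and 1.78 RPKM in sham jejunum, and all 4 leukocyte markers lay above 0. Their part in the result was not tested. Rescaling to 1 total put the median of all genes at 0.13. On that scale 31 of 37 members lay below 0, their median was -0.41, and Gsta1 was at -0.87, short of 2-fold, while Ugt1a9 was the 1 member past it.

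In ileum the differences were smaller, and Gsta1, Gsta2, Gsta3, Gstm3, Gstm6 and Ugt2a3 were the lowest members. Of 35 members kept, 26 (74.3%) lay below 0, against 48.2% of all genes kept, with a median of -0.17. None reached 2-fold on the log2(RPKM + 1) scale, where 0.148% of all genes were higher and 0.123% lower. The ratios of Gstm3 and Gstm6 given next are of RPKM alone and do pass 2-fold. At 1.5-fold 6 were lower and 0 higher, where 0.852% of all genes were lower and 0.631% higher. Gstm3 had 13.9 RPKM (653 reads) in VSG ileum and 27.9 RPKM (1679 reads) in sham ileum, a ratio of 0.499 (95% interval 0.455 to 0.546). Gstm6 had 3.78 and 8.17 RPKM, Gsta1 68.5 and 121 RPKM and Gsta3 3.502 and 6.72 RPKM in VSG and sham ileum, ratios of 0.462, 0.565 and 0.521. Ugt2a3 had 17.8 and 31.2 RPKM in VSG and sham ileum, a ratio of 0.571, and Gsta2 one of 0.605.

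Several abundant members were near even in ileum. Gsta4, the alpha class gene that was lower in VSG jejunum, had 24.4 and 25.2 RPKM in VSG and sham ileum (ratio 0.967, interval 0.886 to 1.05). Gstp1, Gsto1, Sult2b1 and Sult1b1 had ratios of 1.02, 1.02, 1.00 and 1.03, and Sult1c2 the highest, 1.48, at 3.75 RPKM in VSG and 2.53 RPKM in sham ileum. Enterocyte markers had a median of -0.12, with 6 of 10 below 0, and summed to 22375 RPKM in VSG and 23825 RPKM in sham ileum. After rescaling to 1 total, 2 members were at least 2-fold lower and the median was -0.28, with all genes at a median of -0.08 and 70.5% of them below 0.

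Jejunum and ileum share no library, so their differences can be set side by side. Whether their libraries come from the same mice is not stated, so the tissues may not be independent repeats of the surgery. Of 34 members kept in both, 24 (70.6%) were lower in VSG in both tissues and 1, Sult1b1, was higher in both, while of 11473 genes kept in both 29.4% were lower in both. Across these 34 genes, which share clusters and copies and are not independent, the differences correlated at r = 0.58 (Spearman's rho 0.65), against 0.29 across all genes. Gsta1, Gsta2, Gsta3 and Gstm3 had log2 differences between -1.01 and -0.70 in both tissues, while Gsta4 was at -0.93 in jejunum and -0.05 in ileum and Gstm4 at -0.86 and -0.18 in the same tissues. The fit over 4 tissues, given further on, called no member. As an alternative to it, limma was fitted to the jejunum and ileum libraries alone, with tissue as a block and 1 residual degree of freedom. Its spread is how far the VSG difference in jejunum departs from that in ileum, moderated over all genes. It does not measure a spread between animals. That fit called 10 of 36 members, all lower in VSG, where 0.557% of 12025 genes were lower and 0.383% higher, 0.94% in all.

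**Figure D4:**
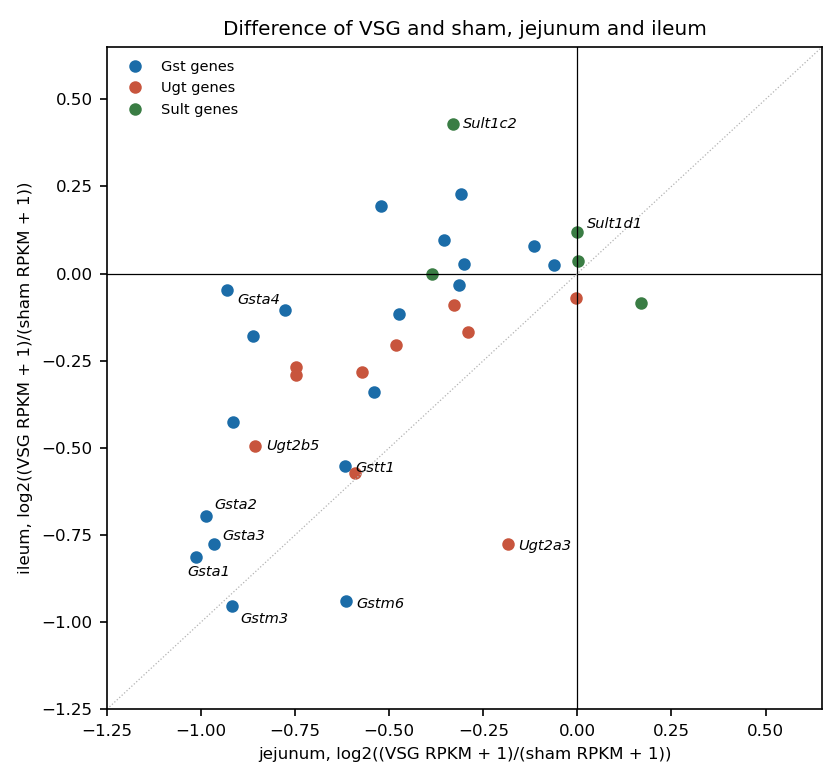
Each point is a member kept in jejunum and ileum, at its log2((VSG RPKM + 1)/(sham RPKM + 1)) in jejunum (x) and ileum (y), coloured by class, with the line of equal values dotted. Of the 34 genes, 24 lie at the lower left, below 0 on both axes, led by Gsta1, Gsta2, Gsta3 and Gstm3, and Sult1c2 and Sult1d1 lie above 0 in ileum.

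In that fit Gstm3 had a log2 difference of -0.94 (SE 0.12, limma adjusted p = 0.00284) and Gsta3 one of -0.87 (SE 0.10, adjusted p = 0.00247). Gsta1 had -0.91 (SE 0.17, adjusted p = 0.0353) and Gsta2 -0.84 (SE 0.13, adjusted p = 0.0111). The others were Gstm1, Gstm6, Gstt1, Sult6b2, Ugt2b36 and Ugt2b5, each lower in VSG in both tissues. Sult6b2 was at 0.613 and 1.19 RPKM in VSG and sham ileum, so its ileum value rests on a low level. A fit without any 1 of these 4 libraries leaves no spread to test against and was not made.

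In colon the members differed little between VSG and sham. Of 34 kept, 24 lay above 0, against 49.6% of all genes kept, and the median was 0.08. None reached 2-fold in either direction, where 0.432% of all genes were higher and 0.0463% lower, and none reached 1.5-fold, where 1.06% were higher and 0.208% lower. Ugt2b36 had the highest difference, 0.46, with 2.02 and 1.204 RPKM in VSG and sham colon. Gsta1 had 30.1 and 23.8 RPKM in VSG and sham colon, a ratio of 1.26 (95% interval 1.151 to 1.38), and Ugt1a1 22.2 and 17.3 RPKM, a ratio of 1.28 (1.21 to 1.36). Sult1a1, the colonic sulfotransferase gene, had 178 and 165 RPKM in VSG and sham colon, a ratio of 1.08 (1.05 to 1.10). The lowest difference was that of Gstt1, -0.22, with 22.0 and 25.8 RPKM in VSG and sham colon. Pancreatic acinar markers summed to 391 RPKM in VSG and 2.34 RPKM in sham colon. Enterocyte markers summed to 869 RPKM in VSG and 658 RPKM in sham colon, with 8 of 9 kept above 0, a median of 0.40 and 1 at least 2-fold higher. The part of both in these values was not tested.

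In duodenum the VSG library is set against the library labelled sham duodenum, with its neural RNA, so VSG and the source of the RNA cannot be told apart. VSG duodenum had at least 2-fold more of 33 and less of 3 of the 37 members kept, against 27.5% higher and 27.9% lower over all genes. Gsta1 had 2308 RPKM in VSG duodenum and 0.772 RPKM in the library labelled sham duodenum, and Sult6b2 had 883 RPKM in VSG duodenum and 0.255 RPKM in the library labelled sham duodenum. The 3 lower members were Sult4a1, a brain sulfotransferase gene with no settled substrate, Gstm5 and Gstm1. Sult4a1 had 0.993 RPKM in VSG duodenum and 105 RPKM in the library labelled sham duodenum, and at most 2.50 RPKM in the others. Gstm5 had 20.2 and 79.7 RPKM, and Gstm1 85.1 and 173 RPKM, in VSG duodenum and the library labelled sham duodenum. Gsta4 (48.9 RPKM), Gstp1 (183 RPKM) and Gstp2 (101 RPKM) were also present in the library labelled sham duodenum.

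Over stomach, jejunum, ileum and colon together, with tissue as a block, none of the 40 members was called for VSG against sham by limma. No gene of 13357 was called either, so 0% is the background, and 349 genes and 2 members had an unadjusted p under 0.05. These members were Gsta2, with a log2 difference of -0.59 (SE 0.18), and Gstm5, with -0.28 (SE 0.09), both at an adjusted p of 0.825, and both were lower in VSG stomach, jejunum and ileum, with colon differences of 0.01 for Gsta2 and -0.16 for Gstm5. Gsta1 had -0.55 (SE 0.24, adjusted p = 0.825). The sign differed between tissues: 14 of 42 members lay below 0 in stomach, 34 of 36 in jejunum, 26 of 35 in ileum and 10 of 34 in colon. Leaving out both stomach libraries also called no member.

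Genes that supply donors to these enzymes, export their products or regulate them were followed by lists chosen for their roles. Of all genes kept in jejunum, 53.0% lay below 0, 0.762% were at least 2-fold higher and 0.3% lower, beside which the list counts stand. In jejunum all 8 other transferase genes were kept, 5 of them below 0 with a median of -0.37, among them Mgst1 (240.4 and 365 RPKM in VSG and sham) and Mgst3 (376 and 583 RPKM), microsomal glutathione transferases. Genes of glutathione supply had a median of -0.16 in jejunum, with 6 of 8 below 0 and 1 at least 2-fold higher, Chac1, a glutathione-degrading enzyme (3.87 and 0.731 RPKM in VSG and sham). For UDP-glucuronate supply all 3 genes kept lay below 0, with Ugdh, which makes UDP-glucuronate, at 196 and 284 RPKM in VSG and sham jejunum. Sulfate donor genes had a median of -0.03, with Papss2, which makes PAPS, at 324 and 445.5 RPKM in VSG and sham jejunum. Papss2 had its highest level, 1239.5 RPKM, in VSG duodenum, the library where Sult6b2 was highest too.

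Conjugate exporters had a median of -0.22 in jejunum with 6 of 7 below 0, none at 2-fold, and Abcc2, an apical exporter, at 91.0 and 106 RPKM in VSG and sham. Of the 11 regulators, 7 lay below 0 in jejunum with a median of -0.16 and none reached 2-fold. Nfe2l2 was at 102 and 107 RPKM in VSG and sham jejunum and Nr1i2, the pregnane X receptor, at 48.0 and 61.1 RPKM. Of the 6 other Nfe2l2 targets 4 lay below 0 in jejunum, and Me1, malic enzyme, was at least 2-fold lower (44.8 and 92.95 RPKM in VSG and sham). Over all these lists 54 genes were kept in jejunum, 1 at least 2-fold higher and 1 lower. Over all genes kept there 0.762% were higher and 0.3% lower, and 53.0% lay below 0. Of the 58 genes of these lists, 55 were kept in ileum and 53 in colon, and none of them reached 2-fold in either direction. Few of all genes did, 0.148% higher and 0.123% lower in ileum, and 0.432% higher and 0.0463% lower in colon. In stomach 13 of the 55 kept were at least 2-fold higher in VSG and 0 lower, where 12.9% of all genes were higher and 3.94% lower. They included Mgst1 (863 and 74.0 RPKM in VSG and sham), Abcc2 (12.4 and 0.0900 RPKM) and Slc26a1, a sulfate transporter (14.4 and 0.115 RPKM), beside the hepatocyte markers above. In the fit over 4 tissues no gene of these lists was called for VSG.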

How the data were processed

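Values are RPKM, as the authors deposited them in a single table of 23079 Entrez genes, of which 23008 matched a mouse symbol. GSNAP, Cufflinks and mm10 are named, per the submitters' processing notes, with no version or role. In the 8 intestinal columns the values of 18187 rows stood 1 row down and were moved back. After the move 300 of 300 genes of that block gave whole reads at 1 length (within 0.01 read), against 4 as deposited. Depth, from the steps of the RPKM values, was 37449500 to 78382700 reads per library, and reads were recovered for 50 of the 61 members. They are the reads at the smallest length that gives whole numbers, so they can be fewer than the true reads. Of 400 genes with 1 GENCODE transcript, that length equalled the annotated one for 56.

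Within a tissue, the difference is log2((VSG RPKM + 1)/(sham RPKM + 1)) kept for genes whose pair averaged 1 RPKM or more, with a threshold of 2-fold and no test, since each group has 1 library. Ratios are of RPKM, with 95% exact conditional binomial (Clopper-Pearson) intervals on the reads that cover counting error only, and a floor of 3 reads. Across tissues, limma 3.58.1 (R 4.3.3) with a mean-variance trend was fitted to log2(RPKM + 1) of 8 libraries, leaving out both of duodenum, with tissue and surgery as terms, 3 residual degrees of freedom and Benjamini-Hochberg adjustment over 13357 genes. The scripts were tested on simulated data. Python 3.11.15, pandas 2.3.3, NumPy 2.4.6, SciPy 1.17.1 and Biopython 1.88 did the rest. Genes named are members past a threshold, those with at least 10 RPKM in some library and the leading member of each family. The members, the gene lists and the tests were chosen with earlier results of these data known. Anpep stands both in the glutathione supply list and among the enterocyte markers. Promoters and gene positions are from RefSeq (GRCm38.p6) and transcripts from GENCODE, and 54 of 61 members had a promoter.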

Additional observations from a re-analysis of the deposited data

Results flagged for a closer look

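Several members differed in opposite directions in stomach and in small intestine, which was not tested, since each value is 1 library against 1. Gsta3 had a log2 difference of VSG and sham of 2.46 in stomach and -0.97 in jejunum, and Gstm4 had 1.10 in stomach and -0.86 in jejunum. Ugt2b36 had 5.98 in stomach and -0.59 in jejunum, and Ugt2b5 had 5.76 and -0.86 in the same tissues. Ugt2b37 had 2.39 in stomach and -0.75 in jejunum, and Ugt2b38 3.29 and -0.75. Against ileum, Gstm6 had 1.52 in stomach and -0.94 in ileum, and Ugt2a3 had 2.03 in stomach and -0.78 in ileum. The hepatocyte markers, which summed to 18495 RPKM in VSG stomach and 71.4 RPKM in sham stomach, moved with the stomach values, and their part in the result was not tested.

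Sult4a1 had 105 RPKM in the library labelled sham duodenum, which was left out of the tests over 8 libraries, with no other library above 2.50 RPKM. The 10 neuron and glia markers summed to 2031 RPKM in the same library.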

How the results depend on the processing

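No paired analysis was possible because the labels give no replicate numbers, beyond the pairing of VSG and sham by tissue that the main design already holds as a term. In the 2-fold counts within a tissue, rescaling to 1 total gave 0 lower members in stomach and 2 in ileum, scaling without the 10 highest genes gave 4 lower in stomach, and a pseudocount of 0.1 gave 3 lower in jejunum and 1 in ileum. A threshold of 1.5-fold, added after the data were seen, gave 23 higher and 4 lower in stomach, 16 lower in jejunum and 6 lower in ileum, where 11.5%, 1.95% and 0.852% of all genes were lower. For VSG over 4 tissues, the jejunum and ileum pairs alone gave 10 members. With all 10 libraries, 1 member differed between small intestine and colon, 0 between jejunum and ileum and 3 between stomach and lower gut, and with no filter on low values 5 differed between jejunum and ileum. Leaving out 1 library at a time gave 8 to 14 members for small intestine against colon, 0 to 18 for jejunum against ileum and 15 to 25 for stomach against lower gut, where the lone library of an arm is assumed to vary like the other groups. Over all genes, small intestine against colon gave 2180 calls, and 564 with all 10 libraries, 4002 rescaled, and 1316 and 1296 without VSG and sham colon. Jejunum against ileum gave 318, and 19 with all 10 libraries, 703 and 705 without VSG and sham stomach, and 0 to 47 without a jejunum, ileum or colon library. Stomach against lower gut gave 2507, and 869 with all 10 libraries and 8519 with rows as deposited. Without either or both stomach libraries 2 genes, neither a member, were called for VSG over 4 tissues. For single members, 49 values within a tissue kept their side of the threshold and 4 lost it, and in the fit 359 kept it and 83 lost it, with no change of direction. The causes were not tested. With 1 library per group, counting intervals of highly expressed members are narrow but say nothing of the spread between animals.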
